A study of Mus musculus with 16 samples.

Results

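The genes described here encode 40 non-collagenous proteins of the extracellular matrix: 10 matrix glycoproteins, 12 elastic fibre proteins, 8 proteoglycans of the versican and small leucine-rich kinds, 5 basement membrane proteins and 5 lysyl oxidases. They form a fixed list, matched by Entrez ID to mouse symbols, and all 40 were found among the 24485 gene IDs of each library. The list was chosen with earlier results of these data known. RNA was sequenced from 2 lines of immortalized mouse embryonic fibroblasts grown in low-glucose DMEM with serum, in a study of the loss of Sdhc, whose product anchors succinate dehydrogenase in the mitochondrial membrane. The exp line has the genotype R26M2rtTA/+;TetOcre;Sdhcfl/fl, so that doxycycline can induce Cre to recombine both Sdhc copies. The ctl line is R26M2rtTA/+;TetOcre;Sdhcfl/wt, in which 1 copy cannot be recombined. Both lines thus carry the transactivator and the inducible Cre, and both were followed through doxycycline, given at 1 µg/mL, at days 0, 5, 9, 12, 16 and 20. Each line has 8 libraries, with 3 biological replicates at day 16 and 1 library on each other day. With a single line for each genotype, the effects of line and of genotype cannot be told apart, and p-values measure the spread between libraries of these lines.

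Matrix glycoproteins such as fibronectin and the tenascins link collagen to cell surface receptors. Elastic fibres consist of an elastin core laid on fibrillin microfibrils, with fibulins and microfibril-associated proteins guiding their assembly. Small leucine-rich proteoglycans coat collagen fibrils and control their width, while lysyl oxidases convert lysines of collagen and elastin to the aldehydes that form cross-links. Fibroblasts are a main source of all these proteins in connective tissue.

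The deposited values are FPKM, reads scaled by gene length and library size, which allow levels to be compared between genes. Library depth, from reads recovered, was 18121520 to 42486438. Sdhc had 32.0 ± 5.23 FPKM in exp and 49.4 ± 1.66 FPKM in ctl at day 16 (SD, n = 3 each), and the difference over all days was -0.34 ± 0.09 log2 (SE; limma adjusted p = 0.0108). The lines differed by -0.04 log2 in Sdhc at day 0. Its day 20 level was 0.48 of that at day 0 in exp and 0.6 in ctl, with 1 library each. The labels do not say which Sdhc exons are flanked by loxP, so transcripts of the recombined allele may be counted. The day 16 libraries fell into sets. Over log values, day 20 of exp correlated at 0.993 with exp replicate 1, but at 0.952 and 0.954 with exp replicates 2 and 3. For ctl the same values were 0.996, 0.98 and 0.982. Replicate 1 was thus the nearer to day 20 within each line. Exp day 0 was also far from exp day 20, at 0.949. The main fits over days treat all 3 replicates as day 16 libraries. Replicates 2 and 3 correlated at 0.995 in exp and 0.997 in ctl over log values, against 0.951 and 0.953 with replicate 1 in exp and 0.979 and 0.981 in ctl. Replicates 2 and 3 still differed by more than counting noise, with a chi-square per degree of freedom of 9.68 in exp and 4.15 in ctl. Against replicate 1 the values were 112 and 115 in exp and 88.7 and 74.0 in ctl. Replicates 2 and 3 were kept as separate samples, although a difference beyond counting noise does not by itself show that they are independent. All 8 fibroblast markers were detected in both lines, with a summed level of 4307 to 5092 FPKM in exp and 3792 to 3978 FPKM in ctl. The lines nevertheless differed in these markers over all days. Col1a2, Col3a1 and Thy1 were called higher in exp, by 2.68, 1.56 and 1.1 log2. Pdgfra, S100a4 and Pdgfrb were called lower, by -1.31, -0.48 and -0.365 log2, and Vim and Col1a1 were not called. Thy1 was low in ctl, at 0.512 to 1.02 FPKM. Of 8 mesothelial markers 7 were higher in exp over all days, and their sum ran over 92.9 to 1152 FPKM in exp and 98.3 to 132 FPKM in ctl. The other marker, Msln (mesothelin), made up most of the ctl sum, with 15.3 to 131 FPKM in exp and 84.8 to 120.5 FPKM in ctl, and was not called (-1.02 ± 0.39 log2, limma adjusted p = 0.0606). The exp sum was highest in day 16 replicate 1, at 1152 FPKM, and at day 20, at 1029 FPKM, and lowest in day 16 replicates 2 and 3. In ctl Upk1b, Wt1, Lrrn4 and Gpm6a were listed at 0 in at least 1 library and did not exceed 0.215 FPKM. Epithelial markers summed to 9.27 to 157 FPKM in exp and 1.44 to 2.11 FPKM in ctl. Their keratins Krt14, Krt18 and Krt8 were higher in exp over all days, by 4.6, 3.27 and 1.48 log2 (limma adjusted p = 3.25e-05, 0.000442 and 0.0106). Krt14 had 5.71 to 107 FPKM in exp and at most 0.217 FPKM in ctl. Cdh1 was not called (-0.16 log2), and Epcam, Krt5, Cldn4 and Ocln did not exceed 0.357 FPKM in either line. Smooth muscle markers summed to 226 to 716 FPKM in exp and 196 to 397 FPKM in ctl. Acta2, Cnn1 and Smtn were called higher in exp over all days, by 1.02, 1.17 and 0.455 log2. Tagln, Actg2 and Lmod1 were not called. At day 16 their sum in replicates 1, 2 and 3 was 524, 716 and 657 FPKM in exp and 290, 397 and 394 FPKM in ctl. Endothelial and macrophage markers summed to at most 3.13 and 9.34 FPKM in exp and 2.46 and 10.5 FPKM in ctl. In bulk RNA, fewer cells of a type and less RNA per cell cannot be told apart.

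The summed level of the matrix genes was 3315 FPKM in exp at day 0 and 4789 to 5985 FPKM in the later exp libraries, and ran over 4830 to 5307 FPKM in the ctl libraries. The exp sums at days 0, 5 and 9 lay below every ctl library. Those at day 12, in day 16 replicates 1 and 3 and at day 20 lay above every one. Sparc and Bgn were the most abundant, followed by Lox, Fn1 and Fbln2, while Lum and Eln did not exceed 1.97 and 1.81 FPKM in ctl and Prelp did not exceed 2.61 FPKM in exp. Tenascin X, encoded by Tnxb, was near the limit of detection, at 0.0461 to 0.209 FPKM in exp and 0.149 to 0.213 FPKM in ctl, and was the 1 gene of the 40 that did not reach a mean of 1 FPKM. The other 39 were tested with limma on log2(FPKM + 1), a scale that understates the change of low genes, with p-values adjusted over all genes tested.

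**Figure D1:**
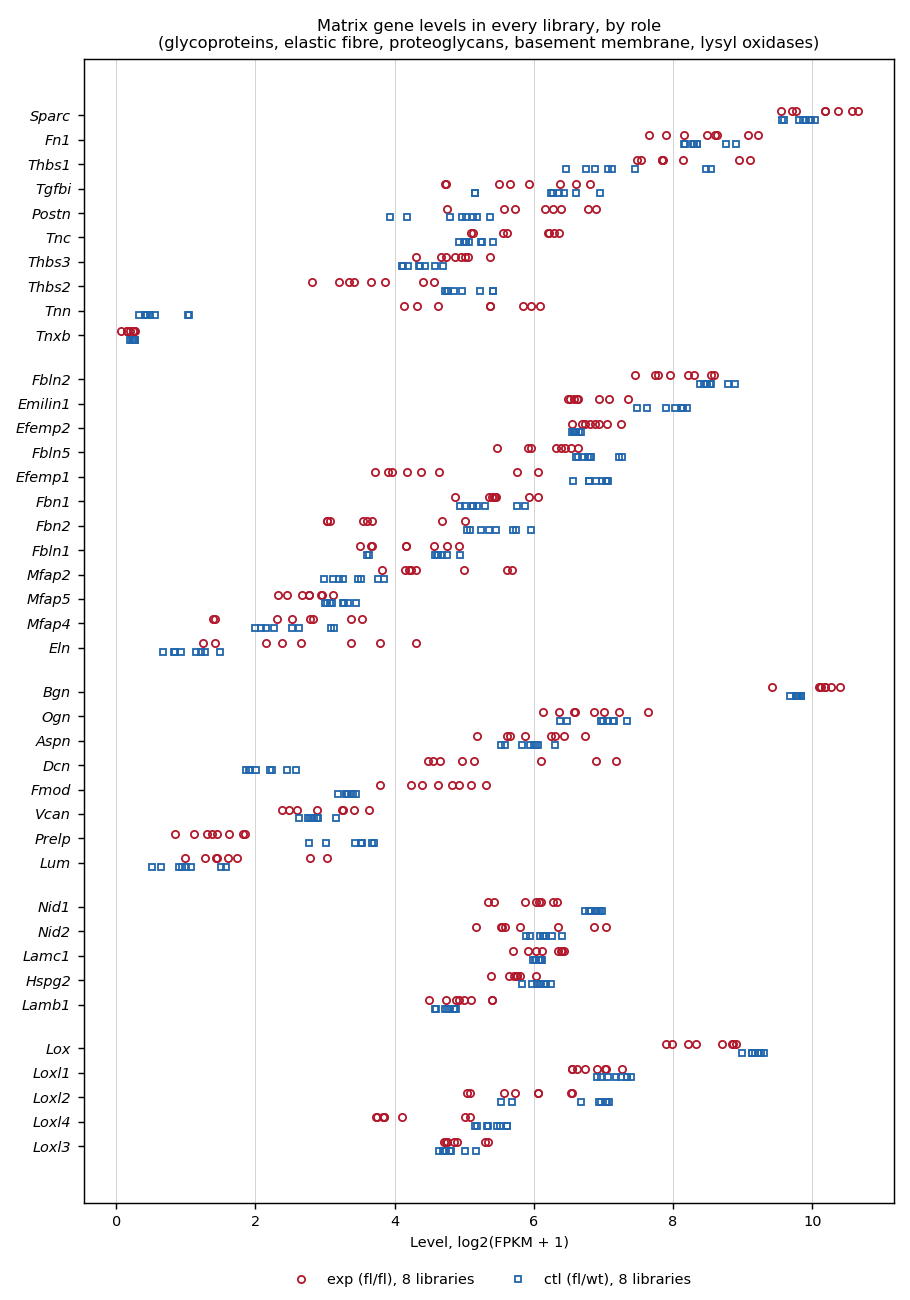
Level of each of the 40 matrix genes in log2(FPKM + 1) in every library, by role, with open circles for the 8 exp libraries and open squares for the 8 ctl libraries. The lines are apart in all libraries for Tnn, Dcn and Fmod, which lie higher in exp, and for Thbs2, Fbn2, Efemp1, Emilin1, Prelp, Nid1, Lox and Loxl4, which lie lower in exp.

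Averaged over all days, 26 of the 39 genes differed (limma adjusted p under 0.05). This average counts each library equally, so day 16 enters it with 3 of the 8 libraries of each line. The spread it is judged by holds any change of the line difference over days, and the split of the day 16 sets. In exp 12 were higher and 14 were lower. Of all 12559 genes tested, 35.9% differed, 19.2% higher and 16.7% lower. The median difference was 0.06 log2 over the matrix genes and 0.01 over all genes. The roles divided unevenly. Of the glycoproteins tested, 5 were higher and 1 was lower of 9; of elastic fibre genes 3 were higher and 6 lower of 12; of proteoglycans 4 were higher and 1 lower of 8. No basement membrane gene was higher and 2 of 5 were lower, and no lysyl oxidase was higher and 4 of 5 were lower. The 8 exp libraries did not overlap the 8 ctl libraries for 11 of the 39 genes, 3 above and 8 below ctl, against 10.2% of all genes tested.

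**Figure D2:**
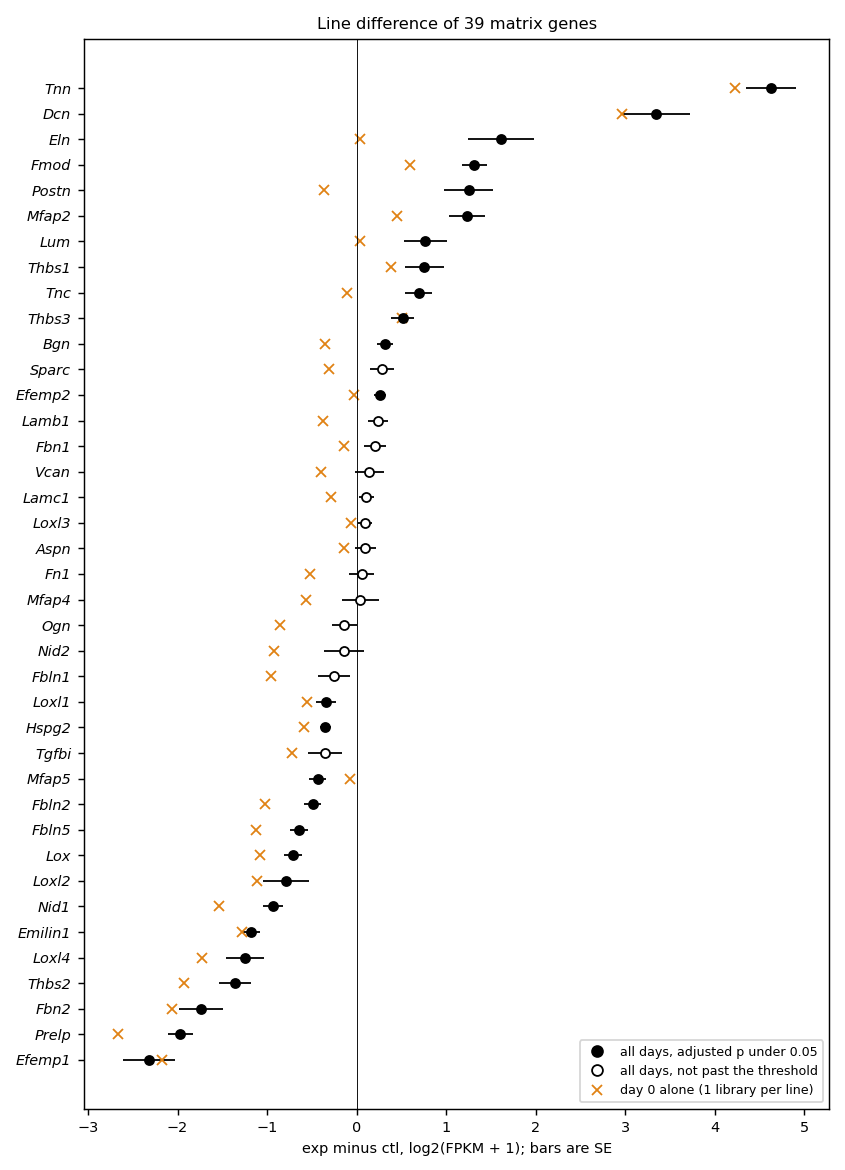
Difference exp minus ctl of the 39 tested genes in log2(FPKM + 1), with SE bars, averaged over all days (filled where the limma adjusted p is under 0.05), and crosses for the day 0 libraries alone, 1 per line. The averages run over -2.32 for Efemp1 to 4.62 for Tnn, and the day 0 crosses lie below 0 for Tnc, Postn and Bgn, whose averages are above 0.

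The largest difference was in a tenascin. Tnn encodes tenascin N, a hexameric matrix glycoprotein known from bone and tumour stroma, and lies at mm9 chr1:162015165-162083711 on the minus strand. Its level was 23.8, 40.5, 56.2 and 67.0 FPKM in exp at days 0, 5, 9 and 12, then 40.2, 18.9 and 16.6 FPKM in day 16 replicates 1, 2 and 3 and 61.3 FPKM at day 20. In ctl it did not exceed 1.06 FPKM, with a lowest value of 0.250 and a median of 0.381 FPKM. The lowest exp library was thus well above the highest ctl library. The difference was 4.62 ± 0.28 log2 over all days (SE; limma adjusted p = 2.56e-07) and 4.22 in the day 0 libraries, of which there is 1 per line.

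Tnc, tenascin C, an adhesion-modulating protein of wounds and stroma, diverged later. Its exp level was 34.0 FPKM at day 0, 72.5, 77.2 and 81.6 FPKM in the day 16 replicates and 73.7 FPKM at day 20, against 36.9 FPKM at day 0, 31.5, 41.5 and 37.3 FPKM at day 16 and 29.5 FPKM at day 20 in ctl. The lines differed by -0.11 log2 at day 0 and did not overlap at day 16. The difference over all days was 0.69 ± 0.15 log2 (limma adjusted p = 0.00417), and 0.112 was the adjusted p without day 16. Exonic bases of Tnc overlap a non-coding gene of the opposite strand over 2.34% of their length, and the strand setting of the counting is not given in the sources used here.

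Postn encodes periostin, a fasciclin-domain protein that promotes collagen cross-linking. Its FPKM had a lowest value of 26.0, a median of 73.7 and a highest value of 118 in exp, against 14.3, 30.9 and 40.4 in ctl. Only the exp library of day 0 fell within the ctl range, and the difference was 1.25 ± 0.28 log2 (limma adjusted p = 0.00456, and 0.0648 without day 16). The thrombospondins, calcium-binding matrix proteins of which Thbs1 and Thbs2 inhibit blood vessel growth, moved in different directions. Thbs1 had 179, 230 and 549 FPKM (lowest, median, highest) in exp and 87.2, 135 and 371 FPKM in ctl, which overlapped, and was higher in exp by 0.75 ± 0.22 log2 (limma adjusted p = 0.0193, and 0.0521 without day 5). Thbs3 was higher in exp by 0.51 ± 0.13 log2 (limma adjusted p = 0.00931), at 18.9, 29.1 and 40.2 FPKM against 16.3, 19.5 and 24.9 FPKM in ctl. Thbs2 was lower, with 6.04, 10.7 and 22.8 FPKM in exp and 25.5, 29.0 and 41.8 FPKM in ctl. Every Thbs2 value in exp lay below every value in ctl, and the difference was -1.36 ± 0.18 log2 (limma adjusted p = 0.000138).

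Fn1, Sparc and Tgfbi were not called over all days. Fibronectin mRNA from Fn1, the main adhesive glycoprotein of fibroblasts, had 199.8 to 596 FPKM in exp and 284 to 478 FPKM in ctl, and differed by 0.06 ± 0.14 log2 (limma adjusted p = 0.781). Sparc, which encodes a collagen-binding protein also called osteonectin, was the most abundant of the genes, with 747 to 1606 FPKM in exp and 757 to 1051 FPKM in ctl (0.28 ± 0.14 log2, limma adjusted p = 0.131). Tgfbi, whose product binds integrins and is induced by TGF-beta, had 25.5 to 110.5 FPKM in exp and 34.5 to 122 FPKM in ctl (-0.36 ± 0.19 log2, limma adjusted p = 0.176). With the replicate number as a block Tgfbi was called lower (limma adjusted p = 0.037).

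Elastic fibre genes were lower in exp for 6 of 12 and higher for 3. Efemp1, which encodes fibulin 3 and lies at mm9 chr11:28753204-28826743 on the plus strand, showed the largest decrease of the 39 genes. It had 19.9, 23.9, 12.2 and 17.1 FPKM in exp at days 0, 5, 9 and 12, then 65.8, 14.1 and 14.5 FPKM in the day 16 replicates and 53.1 FPKM at day 20. The ctl libraries had 93.9 to 132 FPKM, with a median of 122 FPKM. No exp library reached the ctl range, although day 16 replicate 1 and day 20, the libraries with the highest mesothelial marker sums, came nearest. The part of those markers in the Efemp1 level was not tested. The difference was -2.32 ± 0.29 log2 (limma adjusted p = 0.000107).

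Fibrillin 2, a microfibril protein of developing tissue encoded by Fbn2, had 7.16, 10.97 and 31.1 FPKM (lowest, median, highest) in exp and 32.0, 41.5 and 61.2 FPKM in ctl. The highest exp value, in day 16 replicate 3, fell just under the lowest ctl value, and the difference was -1.74 ± 0.25 log2 (limma adjusted p = 0.00026). Fbn1, which encodes the fibrillin of adult microfibrils, was not called, at 28.2 to 65.7 FPKM in exp and 29.6 to 57.8 FPKM in ctl (0.20 ± 0.12 log2, limma adjusted p = 0.221). It was called higher with the replicate number as a block (limma adjusted p = 0.0268), and 20.1% of its exonic bases overlap a gene of the opposite strand. Emilin1, which encodes a glycoprotein at the interface of elastin and microfibrils, had 88.9, 97.7 and 162 FPKM in exp and 178, 268 and 294 FPKM in ctl. Its lines did not overlap in any library, and it differed by -1.18 ± 0.10 log2 (limma adjusted p = 2.83e-06).

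Fbln5, a fibulin that tethers elastin to cells and microfibrils, and Fbln2, a fibulin of elastic fibres and basement membranes, were lower by smaller amounts. Fbln5 had 43.5, 80.8 and 98.5 FPKM in exp and 96.4, 109 and 154 FPKM in ctl, a difference of -0.64 ± 0.10 log2 (limma adjusted p = 0.000486). Fbln2 had 174, 272 and 383 FPKM in exp and 333, 364 and 473 FPKM in ctl, a difference of -0.49 ± 0.10 log2 (limma adjusted p = 0.00199). For both genes the ranges overlapped, but exp was the lower member of all 8 pairs of libraries matched by day and replicate number. Mfap5, a microfibril-associated glycoprotein, was also lower in exp, at 4.02 to 7.70 FPKM against 7.01 to 9.93 FPKM in ctl (-0.44 ± 0.09 log2, limma adjusted p = 0.00357, and 0.0548 without day 16).

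Eln, Mfap2 and Efemp2 were higher in exp. Eln encodes elastin itself. Its exp level was 1.38, 1.68, 4.23 and 9.37 FPKM at days 0, 5, 9 and 12, then 12.8, 5.27 and 3.45 FPKM in the day 16 replicates and 18.8 FPKM at day 20, against 0.602 to 1.81 FPKM in all ctl libraries. The lines differed by 0.04 log2 at day 0, and the day 20 exp library stood 13.6-fold above its day 0 library. The difference over all days was 1.61 ± 0.37 log2 (limma adjusted p = 0.00544, and 0.0591 without day 16). Day 16 replicate 1 and day 20, which had the highest Eln, also had the highest mesothelial marker sums, and the part of those markers was not tested.

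Mfap2, the other microfibril-associated glycoprotein gene called, had 13.1, 18.4 and 50.6 FPKM (lowest, median, highest) in exp and 6.92, 9.36 and 13.4 FPKM in ctl. It peaked at days 9 and 12 in exp, and differed by 1.23 ± 0.20 log2 (limma adjusted p = 0.000592). Efemp2, fibulin 4, which brings lysyl oxidase to elastin, had 92.4, 113 and 152 FPKM in exp and 92.6, 95.9 and 102 FPKM in ctl. That small difference of 0.26 ± 0.07 log2 passed the test (limma adjusted p = 0.0123), and did not without day 16 (0.0775) or without day 16 replicates 2 and 3 (0.0641). Fbln1 and Mfap4 were not called and overlapped throughout, with 10.4 to 29.4 and 1.61 to 10.6 FPKM in exp and 11.2 to 29.8 and 3.0 to 7.79 FPKM in ctl.

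Among the proteoglycans, Dcn stood apart. Dcn encodes decorin, a small leucine-rich proteoglycan that binds collagen fibrils and TGF-beta, and lies at mm9 chr10:96942245-96980777 on the plus strand. Its level in exp was 30.4, 34.3, 22.4 and 67.5 FPKM at days 0, 5, 9 and 12, then 118, 24.2 and 21.3 FPKM in the day 16 replicates and 143.5 FPKM at day 20. In ctl it was 2.66, 3.34 and 5.01 FPKM (lowest, median, highest). The lines were far apart on every day, also before doxycycline, where the difference was 2.96 log2. Over all days it was 3.34 ± 0.37 log2 (limma adjusted p = 4.08e-05). The highest values again fell in day 16 replicate 1 and day 20, and the part of the mesothelial markers in them was not tested.

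Fmod and Prelp encode related leucine-rich repeat proteins. Fibromodulin, from Fmod, regulates collagen fibril growth, and prolargin, from Prelp, anchors basement membranes to connective tissue. Fmod, at mm9 chr1:135933831-135944854 on the plus strand, had 12.9, 25.4 and 38.9 FPKM in exp and 8.15, 9.04 and 9.95 FPKM in ctl, with no overlap (1.31 ± 0.14 log2, limma adjusted p = 3.26e-05). Prelp, at mm9 chr1:135806881-135817991 on the minus strand, had 0.794, 1.67 and 2.61 FPKM in exp and 5.81, 10.4 and 12.0 FPKM in ctl, also with no overlap (-1.97 ± 0.14 log2, limma adjusted p = 9.34e-07). These genes lie 115.8 kb apart and differed between the lines in opposite directions.

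The DNA just upstream of the genes at the ends of this range is shown for the 2 highest and 2 lowest differences among called genes with exactly 1 RefSeq promoter entry, which are Tnn, Fmod, Efemp1 and Prelp. Each line gives 235 bases, starting 250 bases before the annotated start, in the build GRCm38.p6, 5′ to 3′ on the gene's strand; coordinates are Tnn chr1:160153591-160153825 (minus), Fmod chr1:134037004-134037238 (plus), Efemp1 chr11:28852955-28853189 (plus) and Prelp chr1:133921417-133921651 (minus). Capitals mark matches, on either strand, to 5 motifs: the TATA box TATAAA, the CCAAT box CCAAT, the GC box GGGCGG, the AP-1 motif TGANTCA and the TEAD motif GGAATG.
Tnn: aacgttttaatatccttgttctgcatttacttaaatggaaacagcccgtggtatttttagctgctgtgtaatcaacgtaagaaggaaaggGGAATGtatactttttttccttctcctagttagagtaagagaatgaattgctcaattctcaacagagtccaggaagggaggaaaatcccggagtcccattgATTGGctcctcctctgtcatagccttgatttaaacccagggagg
Fmod: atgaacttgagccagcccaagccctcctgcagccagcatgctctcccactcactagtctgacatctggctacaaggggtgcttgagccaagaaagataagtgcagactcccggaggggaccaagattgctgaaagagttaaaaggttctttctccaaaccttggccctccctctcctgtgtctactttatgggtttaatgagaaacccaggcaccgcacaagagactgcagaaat
Efemp1: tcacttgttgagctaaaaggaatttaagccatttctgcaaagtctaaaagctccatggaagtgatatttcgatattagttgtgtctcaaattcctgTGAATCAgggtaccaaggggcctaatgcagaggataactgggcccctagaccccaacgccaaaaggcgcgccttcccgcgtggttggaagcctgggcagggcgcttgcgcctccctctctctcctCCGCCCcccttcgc
Prelp: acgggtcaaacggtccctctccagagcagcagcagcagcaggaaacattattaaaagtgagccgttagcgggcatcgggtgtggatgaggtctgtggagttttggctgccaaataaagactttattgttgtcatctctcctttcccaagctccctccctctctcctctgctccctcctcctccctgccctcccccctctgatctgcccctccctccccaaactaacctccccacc
The Tnn window held 1 CCAAT box and 1 TEAD motif, which do not overlap, and the Efemp1 window 1 AP-1 motif and 1 GC box. The Fmod and Prelp windows held no match, which says only that these letters are not there. Promoter entries were found for 26 of the 40 genes, as 33 windows. A GC box was in 17 of the 33 windows (51.5%) and in 30.6% of all 32851 windows of this length. The shares were 18.2% and 11.9% for the TATA box, 27.3% and 32.6% for the CCAAT box, 6.06% and 6.48% for AP-1 and 12.1% and 12.0% for TEAD. These matches describe sequence only.

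Bgn and Lum were higher in exp by smaller amounts. Biglycan, from Bgn, a close relative of decorin, was among the most abundant transcripts, with 684, 1137 and 1354 FPKM (lowest, median, highest) in exp and 818, 886 and 911 FPKM in ctl. All exp libraries except that of day 0 lay above all ctl libraries, and the difference was 0.32 ± 0.09 log2 (limma adjusted p = 0.0149, and 0.141 without day 16). This call of Bgn was also lost with the day 16 replicates averaged (limma adjusted p = 0.0799) or without day 16 replicates 2 and 3 (0.0726). Lum, which encodes the fibril-binding keratan sulfate proteoglycan lumican, had 0.991, 1.88 and 7.19 FPKM in exp and 0.434, 0.964 and 1.97 FPKM in ctl, which overlapped (0.77 ± 0.24 log2, limma adjusted p = 0.0274). Without exp replicate 3 the adjusted p of Lum was 0.0508, and without ctl replicate 1 it was 0.0532. Vcan, Ogn and Aspn, which encode the large hyaluronan-binding versican and the small leucine-rich proteins osteoglycin and asporin, were not called, with differences of 0.14, -0.14 and 0.09 log2.

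Among the basement membrane genes, Nid1 and Hspg2 were lower in exp. Nid1 encodes nidogen 1, which links laminin to collagen IV, and had 39.6, 65.5 and 79.3 FPKM (lowest, median, highest) in exp and 105, 117 and 125 FPKM in ctl. The lines did not overlap, with a difference of -0.94 ± 0.11 log2 (limma adjusted p = 6.01e-05). Hspg2, which encodes the heparan sulfate proteoglycan perlecan, had 40.7, 52.7 and 64.5 FPKM in exp and 55.8, 67.4 and 75.3 FPKM in ctl (-0.35 ± 0.06 log2, limma adjusted p = 0.00135). Nid2, the other nidogen, had 35.1 to 131 FPKM in exp and 58.2 to 84.0 FPKM in ctl, so exp lay both below and above ctl (-0.14 ± 0.22 log2, limma adjusted p = 0.659). The laminin chain genes Lamb1 and Lamc1 were not called, with differences of 0.24 and 0.11 log2.

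Of the lysyl oxidases, Lox, Loxl1, Loxl2 and Loxl4 were lower in exp. Summed over the 5 genes, the level was 421 to 732 FPKM in exp and 822 to 963 FPKM in ctl, without overlap. Lox, the family's best-studied cross-linking enzyme, made up most of it, with 239, 368 and 476 FPKM (lowest, median, highest) in exp and 506, 587 and 634 FPKM in ctl. No exp library reached ctl, and the difference was -0.71 ± 0.10 log2 (limma adjusted p = 0.000272). Loxl4 had 12.3, 13.4 and 33.1 FPKM in exp and 34.5, 41.5 and 48.0 FPKM in ctl, a difference of -1.25 ± 0.21 log2 (limma adjusted p = 0.000842). Its exp values in day 16 replicates 2 and 3, 31.4 and 33.1 FPKM, came close to the ctl values of those replicates, 34.5 and 35.5 FPKM.

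Loxl2, which with Loxl3 and Loxl4 has scavenger receptor domains and which acts on collagen IV, had 31.8, 58.9 and 92.6 FPKM in exp and 45.4, 123.1 and 134 FPKM in ctl. The ranges overlapped through the low ctl values of day 16 replicates 2 and 3, and the difference was -0.79 ± 0.26 log2 (limma adjusted p = 0.0317). Loxl1, which acts in elastic fibre upkeep, had 92.4, 112 and 154 FPKM in exp and 119, 147 and 167 FPKM in ctl (-0.34 ± 0.11 log2, limma adjusted p = 0.0326). Neither call was firm. That of Loxl2 was lost without exp replicate 2 or 3 (0.0575 and 0.0574) or ctl replicate 1 (0.0569). That of Loxl1 was lost without replicate 1 of exp (0.0558) or of ctl (0.0618). Loxl3 was not called, at 25.2 to 39.5 FPKM in exp and 24.0 to 35.1 FPKM in ctl, and 12.8% of its exonic bases overlap Htra2 on the opposite strand.

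Before doxycycline the matrix genes already differed. In the day 0 libraries, 1 per line, Tnn and Dcn were at least 1 log2 higher in exp and 11 genes at least 1 log2 lower, against 4.85% and 2.54% of 12640 genes in all (7.39% in either direction). The 11 genes were Thbs2, Fbn2, Fbln2, Fbln5, Efemp1, Emilin1, Prelp, Nid1, Lox, Loxl2 and Loxl4. When day 0 was left out of the fit over days, 25 matrix genes were called, and 20 of them (80%) had the same sign at day 0. Over all genes this share was 85.3% of 4196. The other 5 were Tnc, Postn, Efemp2, Bgn and Lamb1, which had day 0 differences of -0.11, -0.37, -0.03, -0.35 and -0.38 log2 and were higher in exp over the later days.

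At day 16, with 3 libraries per line, 12 of the 39 genes passed, 6 higher and 6 lower, against 6.1% of 12533 genes tested (3.1% higher and 3.01% lower). Higher in exp were Tnn, Postn, Fmod, Tnc, Mfap2 and Bgn. Tnn averaged 25.3 ± 13.0 FPKM in exp and 0.818 ± 0.410 FPKM in ctl (SD, n = 3 each), a difference of 3.77 ± 0.36 log2 (SE; limma adjusted p = 0.00402). Tnc averaged 77.1 ± 4.53 FPKM in exp and 36.8 ± 5.02 FPKM in ctl, 1.06 ± 0.11 log2 (limma adjusted p = 0.00564). Postn averaged 75.6 ± 31.5 FPKM in exp and 19.4 ± 6.52 FPKM in ctl, 1.87 ± 0.35 log2 (limma adjusted p = 0.0393, and 0.0678 with the replicate block). Fmod differed by 1.16, Mfap2 by 0.97 and Bgn by 0.31 log2.

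Lower at day 16 were Prelp, Emilin1, Mfap5, Nid1, Lox and Hspg2. Prelp averaged 1.57 ± 0.455 FPKM in exp and 7.75 ± 2.37 FPKM in ctl (SD, n = 3 each), -1.75 ± 0.23 log2 (limma adjusted p = 0.0114). Emilin1 averaged 94.4 ± 4.0 FPKM in exp and 218 ± 53.1 FPKM in ctl, -1.17 ± 0.17 log2 (limma adjusted p = 0.0172). Nid1 differed by -0.60 ± 0.10 log2 (limma adjusted p = 0.0258, and 0.0521 with the replicate block), Mfap5 by -0.63, Lox by -0.36 and Hspg2 by -0.36 log2. In 20 of the 39 genes the 3 exp and 3 ctl libraries did not overlap, 9 above and 11 below, against 32% of all genes tested. Among these, Dcn, Efemp1 and Eln had large differences that were not called, 3.03, -2.24 and 1.67 log2 (limma adjusted p = 0.0541, 0.084 and 0.0841), since their exp replicates were far apart.

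Few day 16 calls were made in every fit with 1 library fewer. Tnn and Tnc were called in all 6 fits that left out 1 library, and the number of genes called ran over 2 to 21. Leaving out exp replicate 1 gave 21 calls, leaving out exp replicate 2 gave 3 and exp replicate 3 gave 4. Leaving out ctl replicate 2 gave 4, and ctl replicate 3 gave 2. Of the other 10 calls, Prelp was lost without exp replicate 3 (0.0586) or ctl replicate 3 (0.0615), and the rest were lost in 3 to 5 of the 6 fits. The differences themselves moved little in the fits that lost them, to 0.30 to 0.33 log2 for Bgn, 1.13 to 1.19 for Fmod, 0.91 to 0.97 for Mfap2 and -1.23 to -1.17 for Emilin1, and more for Postn, to 1.57 to 2.12 log2. With the replicate number as a block 14 genes were called: Postn and Nid1 dropped out and Thbs2, Tgfbi, Fbln2 and Loxl2 came in, all lower in exp.

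The replicate sets differed in these genes as well. Relative to replicate 1, the mean of replicates 2 and 3 was shifted by at least 0.58 log2 in 19 of the 39 genes in exp and in 13 in ctl, against 12.6% and 6.88% of all genes tested. Higher in both lines were 5 genes, against 1.95% of all genes tested: Thbs1 by 0.87 in exp and 1.44 in ctl, Thbs2 by 0.83 and 0.66, Fbn1 by 0.59 and 0.70, Fbn2 by 1.81 and 0.59, and Lum by 1.63 and 0.64 log2. Lower in both were 3, against 0.91%: Loxl2 by -1.49 in exp and -1.36 in ctl, Tgfbi by -0.77 and -1.12, and Fbln1 by -0.58 and -0.99 log2. Dcn, Tnn and Postn were shifted in opposite directions, against 0.527% of all genes, with -2.32 in exp and 0.62 in ctl for Dcn, -1.14 and 0.61 for Tnn, and 0.90 and -0.74 for Postn. The line difference of Dcn was therefore 4.99 log2 between the libraries of replicate 1 and 2.05 between the means of replicates 2 and 3, and that of Postn 0.78 and 2.42. For Efemp1 it was -0.92 and -2.91, for Eln 2.96 and 1.02, and for Loxl4 -1.78 and -0.12 log2. Mesothelial markers summed to 1152 FPKM in exp replicate 1 and 92.9 and 105.8 FPKM in exp replicates 2 and 3. Within exp at day 16 they moved with Dcn, Tnn, Efemp1 and Eln, and also with Nid2, Loxl2, Mfap4 and Sparc, among others. Not all of these genes followed the sum on other exp days. At days 0, 5, 9 and 12 the marker sum was 323, 328, 160 and 325 FPKM. Eln had 1.38, 1.68, 4.23 and 9.37 FPKM on those days, and Tnn was highest at day 12, at 67.0 FPKM. Dcn and Efemp1 were, like the sum, lowest at day 9 of these days. The part of the markers was not tested.

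**Figure D3:**
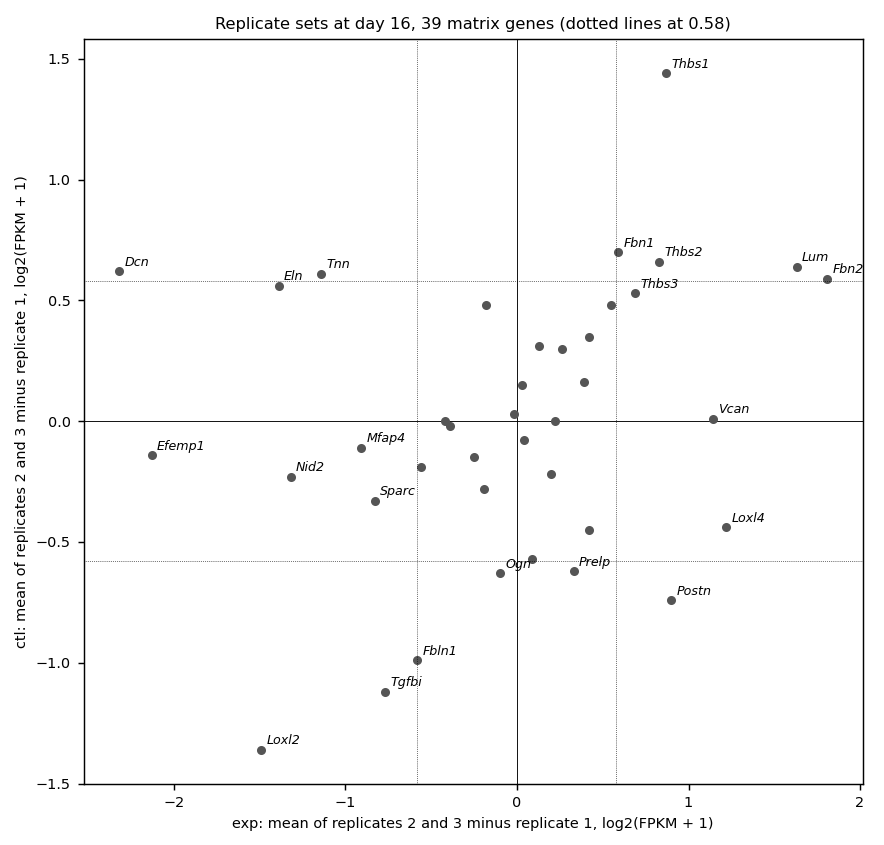
Shift of day 16 replicates 2 and 3 from replicate 1 for the 39 tested genes in log2(FPKM + 1), in exp on the x axis and in ctl on the y axis, with dotted lines at 0.58. Thbs1, Thbs2, Fbn1, Fbn2 and Lum lie in the upper right corner, Loxl2, Tgfbi and Fbln1 in the lower left, and Dcn and Tnn in the upper left, lower in exp and higher in ctl.

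Over time, matrix genes tended upwards in exp. At day 20, 34 of the 39 genes had a higher FPKM than at day 0 in exp and 18 of 39 in ctl, against 39.7% and 42.8% of all genes tested. Much of this was in place by day 5, when 36 of 39 genes exceeded their day 0 level in exp and 29 of 39 in ctl, against 43.8% and 51.5% of all genes. The median step over these 5 days was 0.48 log2 in exp and 0.18 log2 in ctl over the matrix genes. These steps rest on 1 library per line and day. Slopes over time, in log2 per 20 days, had a median of 0.59 over the 39 genes in exp and of -0.01 in ctl, where the medians over all genes were -0.09 and -0.03.

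Within exp, 8 genes rose and none fell, against 1.36% of 12559 genes that rose and 3.59% that fell (4.95% in all). Eln rose by 2.68 ± 0.53 log2 per 20 days (limma adjusted p = 0.0182), Tnc by 1.35 ± 0.26 (0.0141) and Fn1 by 1.34 ± 0.32 (0.0323). Thbs2 rose by 1.39 ± 0.37, Fbln5 by 1.10 ± 0.20, Fbln2 by 1.05 ± 0.21, Lox by 1.01 ± 0.21 and Nid1 by 0.81 ± 0.21 (limma adjusted p = 0.0456, 0.0116, 0.018, 0.0202 and 0.044). Of these, Thbs2, Fbln5, Fbln2, Lox and Nid1 were genes that were lower in exp than in ctl, so that their levels moved towards those of ctl. Fn1 had 199.8 FPKM in exp at day 0 and 395 FPKM at day 20, against 287 and 284 FPKM in ctl. None of the 8 calls was made without day 0, where the adjusted p ran over 0.145 to 0.406. The slopes without day 0 were 2.96 for Eln, 1.54 for Tnc, 1.36 for Thbs2, 1.29 for Fn1, 1.06 for Lox, 1.05 for Fbln2, 0.95 for Fbln5 and 0.62 for Nid1. Without day 16 the calls of Eln and Fbln5 were still made, and those of Tnc (1.01, adjusted p = 0.104), Fbln2 (0.73, 0.0587) and Lox (0.67, 0.17) were lost, as were those of Fn1, Thbs2 and Nid1. Without day 20 the call of Eln was lost (2.25, adjusted p = 0.0504). Tnc, Eln, Fbln2, Fbln5 and Lox kept theirs without any 1 day 16 library, and Fn1, Thbs2 and Nid1 did not: the highest adjusted p was 0.0547 for Fn1, 0.0774 for Thbs2 and 0.0767 for Nid1.

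In ctl no gene of the 39 passed this test over time, nor did any of the 12559 genes (limma), of which 203 had an unadjusted p under 0.05. The joint fit gives both lines 1 shared spread, so the exp and ctl slopes of a gene have the same SE. It was 0.533 for Eln and 0.775 for Dcn in either line. The absence of calls in ctl therefore does not show that ctl levels were steady. The slope difference between the lines tests whether the exp minus ctl difference changed over time; a positive value widens the gap of genes higher in exp and narrows that of genes lower in exp. It was positive in 34 of the 39 genes, with a median of 0.65 log2 per 20 days, against -0.06 over all genes. No matrix gene passed, against 0.207% of all genes tested (0.183% with a positive and 0.0239% with a negative difference), of which 1388 had an unadjusted p under 0.05. The smallest p was that of Tnc, with 1.40 ± 0.26 log2 (limma adjusted p = 0.0666). Eln had 2.91 ± 0.85 (0.248), Postn 2.21 ± 0.63 (0.235), Nid2 1.52 ± 0.59 (0.38) and Thbs2 1.26 ± 0.45 (0.338). Thbs2 passed with the replicate number as a block (limma adjusted p = 0.0343), and Eln passed without day 16 replicates 2 and 3, at 3.95 log2 (limma adjusted p = 0.0331). By role, the median slope difference was 0.74 for glycoproteins, 0.62 for elastic fibre genes, 0.77 for proteoglycans, 0.82 for basement membrane genes and 0.52 for lysyl oxidases.

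**Figure D4:**
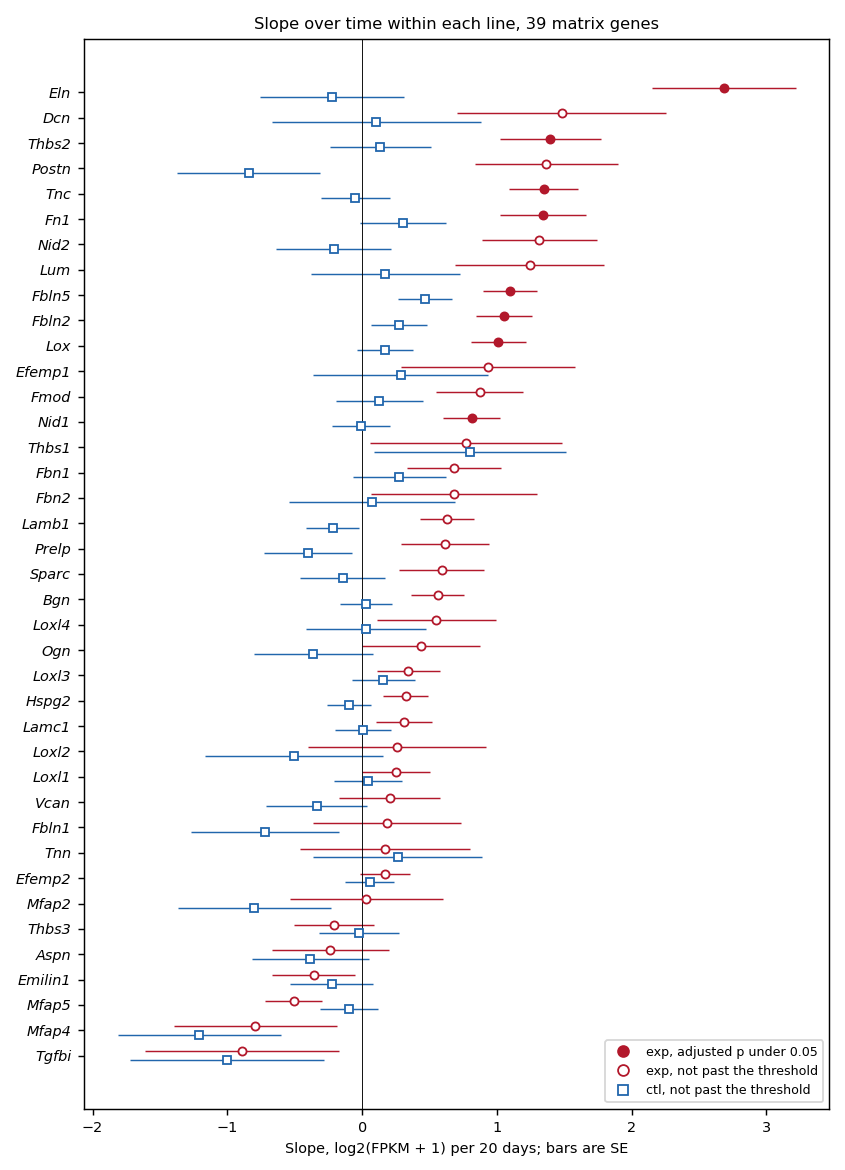
Slope over time of the 39 tested genes within each line, in log2(FPKM + 1) per 20 days with SE bars, with circles for exp (filled where the limma adjusted p is under 0.05) and squares for ctl. The bars come from a spread shared by both lines and are equal within a gene. Filled circles mark Eln, Thbs2, Tnc, Fn1, Fbln5, Fbln2, Lox and Nid1, with slopes of 0.81 to 2.68, while no ctl square is past the threshold.

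**Figure D5:**
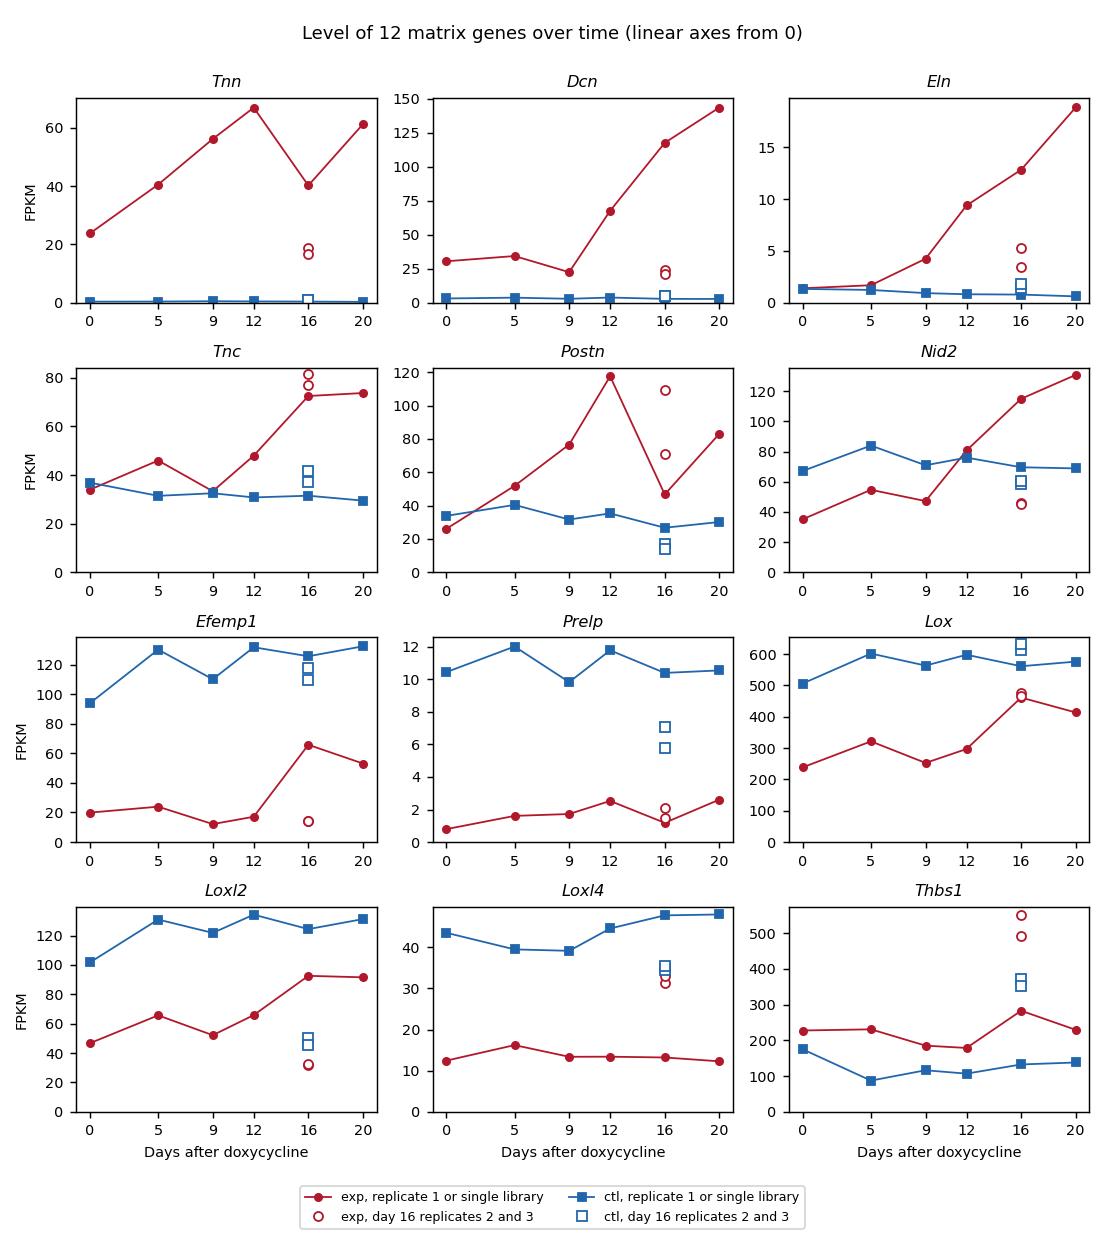
FPKM of 12 matrix genes against days after doxycycline, exp in circles and ctl in squares, with lines through single libraries and day 16 replicate 1 and open symbols for day 16 replicates 2 and 3. Eln reaches 18.8 FPKM in exp at day 20 and does not exceed 1.81 FPKM in ctl, and the open exp symbols of Dcn, at 24.2 and 21.3 FPKM, lie far below its replicate 1 at 118 FPKM.

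The exp libraries in which genes peaked fell into a few groups. Day 16 replicates 2 and 3 held the 2 highest exp values of 14 genes, among them Fn1, Tnc, Thbs1, Thbs2, Fbn1, Fbn2, Lox and Loxl4, against 14.6% of all genes tested. This group was not particular to exp: in ctl the same replicates held the 2 highest values of 14 genes, against 23.8%. Tnc, Fn1, Thbs1, Thbs2, Fbn1, Fbln2, Lum, Lox and Loxl3 were among these genes in both lines. The groups that follow are those of exp. Day 16 replicate 1 and day 20 held those of 8 genes, Sparc, Eln, Fbln5, Efemp1, Dcn, Nid2, Lamb1 and Loxl2, against 6.08%. Days 9 and 12 held those of 7 of the 39, Tgfbi, Fbln1, Efemp2, Mfap2, Mfap4, Mfap5 and Emilin1, a share not far above the 13.2% of all genes. All of these but Tgfbi are elastic fibre genes, while the elastic fibre genes Eln, Fbn1, Fbn2, Fbln2, Fbln5 and Efemp1 peaked in other exp libraries. Days 12 and 20 held those of 6, Tnn, Bgn, Fmod, Ogn, Aspn and Prelp, against 2.34%, of which all but Tnn are small leucine-rich repeat genes. These groupings were seen in the data and carry no test.

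Genes of related roles were read from lists that, like the matrix genes, were chosen with earlier results of these data known. Their counts stand against the 35.9% of all genes called in the same fit, as a description only. Of 20 tested genes of TGF-beta signalling and latent TGF-beta binding, 6 were higher and 5 lower in exp over all days. Tgfbr2, the type II receptor, had 44.0 to 66.0 FPKM in exp and 160 to 258 FPKM in ctl (-1.90 ± 0.12 log2, limma adjusted p = 2.4e-07), and Tgfb3, a ligand, differed by 0.74, Ltbp1, which holds latent TGF-beta in the matrix, by -1.15, and Smad3, a signal transducer, by -0.39 log2. Of 21 matrix receptors tested of 26, 6 were higher and 6 lower: the 4 with the smallest p were Mrc2, a collagen uptake receptor, at -0.83, Cd44, the hyaluronan receptor, at -1.34, Sdc1, syndecan 1, at 0.70, and Itgb8, an integrin chain that activates TGF-beta, at 0.60 log2. Of 18 glycosaminoglycan synthesis genes tested of 22, 4 were higher and 3 lower, led by Ugdh, which makes the sugar precursor UDP-glucuronate, at -0.54 log2 and Ext1, a heparan sulfate polymerase, at 0.49 log2, with Chpf2 at -0.34 and Csgalnact1 at 0.61 log2, both of chondroitin sulfate synthesis. Of 27 other matrix glycoprotein genes tested of 40, 8 were higher and 8 lower, led by Lama5, a laminin chain, at 1.05, Igfbp7 at -1.50, Ccn3 at -1.97 and Emilin2 at -1.40 log2. None of these 4 lists had a gene with a slope difference past the threshold.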

How the data were processed

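RNA-seq libraries of 2 fibroblast lines were analysed from FPKM values per gene that the authors deposited, 1 file per library; groups come from the sample titles. Bowtie2 2.2.3 and the mouse build mm9 are named per the submitters' processing notes, the mRNA library kit per the labels' protocols; how reads were counted, on which annotation and with which strand setting, is not given in the sources used here. IDs were matched to symbols through a table of gene names for 24416 of 24485. Whole reads were recovered from the FPKM steps for 18966 genes, with a largest distance of 0.000671 read where 0.02 was allowed, which follows from the rule; they served as an alternative input and for totals. Differences were tested on log2(FPKM + 1) in R 4.3.3 (limma 3.58.1, statmod 1.5.0), keeping genes that averaged at least 1 FPKM. The tests used trend and robust empirical Bayes and were two-sided, Benjamini-Hochberg adjusted over all genes tested, at 0.05. They were checked on simulated data in which 200 genes changed. Those data had the same spread setting for all genes and no split of replicates, so the check does not cover the day 16 sets.

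The fits were the day 16 line difference (6 libraries), the line difference with day as a factor (16 libraries), the slope difference with a line-by-day term per 20 days, and slopes within each line from a joint fit. That joint fit has a single spread for both lines. No test was made at day 0, where each line has 1 library. Same-numbered day 16 replicates deviated together (0.38, 0.27 and 0.33 over 12533 genes). A split of replicate 1 from replicates 2 and 3 in both lines gives such values by itself, so they do not show pairing by number. Over log values, exp replicate 2 correlated at 0.961 with ctl replicate 2 and at 0.96 with ctl replicate 3. The number was used as a block in an alternative only, and the labels do not say what a number shares. The genes and lists were chosen with earlier results of these data known. Values are given for genes past the threshold in a line or slope-difference fit and for the 2 most abundant of each role, and up to 4 genes with the smallest p per list; other genes were named after their values were seen. Alternatives were other pseudocounts, filters, scalings and fits, each replicate and each day left out; a term for the replicate sets, replicates 2 and 3 alone, and the day 0 settings were chosen after seeing the data. Coordinates are mm9 (GENCODE vM1), and promoter sequences are RefSeq on GRCm38.p6. Figures used matplotlib 3.10.9.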

Additional observations from a re-analysis of the deposited data

Results flagged for a closer look

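Lamb1, which encodes the laminin beta 1 chain, moved in opposite directions from day 0 in the lines. In exp it had 21.6 FPKM at day 0 and 25.8 to 41.2 FPKM in the 7 later libraries, all above it. In ctl it had 28.5 FPKM at day 0 and 22.9 to 28.2 FPKM later, all below it. The slope difference was 0.85 ± 0.27 log2 per 20 days, which did not pass the test (limma adjusted p = 0.284), and each day 0 value rests on 1 library. Its highest exp values were in day 16 replicate 1 and at day 20, where the mesothelial marker sum was also highest; the part of those markers was not tested.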

How the results depend on the processing

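No direction of a called gene reversed under any alternative. Over all days the 26 calls became 23 to 26 when 1 day 16 replicate was left out, 20 to 25 when 1 day was left out and 28 with the replicate block; 16 of the 26 genes were called under every alternative. At day 16 the 12 calls became 2 to 21 with 1 replicate left out. They became 14 with the replicate block, which paired libraries by number, dropped Postn and Nid1 and added 4 genes. After seeing the data, 2 further fits were chosen: a term for replicate 1 against replicates 2 and 3 gave 24 calls, and replicates 2 and 3 alone gave 32, on the small spread of libraries that correlated at 0.995 or more. The slope difference, with 0 calls, gave 1 with the replicate block (Thbs2) and 1 without day 16 replicates 2 and 3 (Eln). Limma voom on the recovered reads called 26 of the matrix genes over all days, 13 at day 16, 7 for the exp slope and 0 for the ctl slope and for the slope difference. Of the all-day calls, the block added Tgfbi and Fbn1 and ended none.

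The 8 slopes called in exp became 5 to 7 with 1 replicate left out, 0 without day 0, 10 without day 5, 5 without day 9, 5 without day 12, 3 without day 16, 7 without day 20, 3 with day 16 replicates averaged and 13 without day 16 replicates 2 and 3. The cause of these changes was not tested, although each of these fits has fewer libraries. The day 0 count of 13 genes past 1 log2 was 13 to 14 under the settings tried after seeing the data. Median-of-ratios scaling moved libraries by -0.045 to 0.078 log2. Depth limited Tnxb, which had 8 to 79 recovered reads per library. Reads of exons that overlap a gene on the opposite strand cannot be told apart from that gene's, which touches Fbn1, Loxl3, Prelp, Nid2, Thbs3, Mfap4, Fn1 and Tnc. Single libraries on 5 of 6 days, and 1 line per genotype, limit all comparisons.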

Other observations

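Of the 40 matrix genes, 3 pairs are close neighbours within the mm9 assembly. Aspn and Ogn, which encode small leucine-rich proteins, lie 40.5 kb apart on chromosome 13, and neither was called over all days. Dcn and Lum lie 47.4 kb apart on chromosome 10, and both were higher in exp, by 3.34 and 0.77 log2. At day 16, however, replicates 2 and 3 were lower than replicate 1 for Dcn in exp, by -2.32 log2, and higher for Lum, by 1.63 log2. Fmod and Prelp, 115.8 kb apart on chromosome 1, differed between the lines in opposite directions, by 1.31 and -1.97 log2.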
